A study of Mus musculus with 6 samples.

Results

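The replication-dependent histone genes were taken as every probe whose symbol in the platform annotation was H1f1 to H1f5 or began with H2ac, H2bc, H3c or H4c followed by a number. This gave 84 of the 45281 probes on the array, for 55 of 19057 named genes. They comprised 6 probes for linker histone H1, 23 for H2A, 18 for H2B, 18 for H3 and 19 for H4. By their older symbols, 46 of the genes belong to the large Hist1 cluster on chromosome 13 and 9 to the Hist2 cluster on chromosome 3. A further 5 genes with older histone cluster symbols have current names outside this rule. Of these, H4f16 was detected on 5 arrays with one probe and on 3 with the other, while the probes of H1f6, H2aw, H2bu2 and H2bu1-ps were not detected on any array.

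Replication-dependent histones package newly copied DNA, and their messages are made in bulk during S phase. Unlike other messenger RNAs, most of these messages end in a short stem-loop held by the stem-loop binding protein and carry no poly(A) tail. Several of the genes can also give polyadenylated transcripts, above all in cells that leave the cell cycle. The labelling kit used here starts cDNA synthesis from the poly(A) tail, so the array does not count the stem-loop messages directly, and a signal does not give the total histone message of a cell.

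RNA came from mouse embryonic stem cells electroporated with a pHYPER short hairpin RNA (shRNA) vector directed at Chd9, called shChd9, or with a control transfection. Chd9 is a member of the chromodomain helicase family of nucleosome remodellers, and the series asks what such remodellers do in stem cells. Each group held 3 samples, each on 1 bead array. Whether they were separate cultures is not stated in the labels, so any p-value reflects the spread among these 6 arrays alone and that spread may be technical. All cells of both groups were grown with serum and leukemia inhibitory factor on feeder fibroblasts inactivated with mitomycin C, and both were selected with puromycin for 48 h from 24 h after electroporation. The labels name neither the control construct nor the stem cell line, and no step that removed the feeder cells before RNA extraction.

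Between 39.2% and 40.8% of all probes were detected on each array, where a probe counts as detected at a deposited detection p-value under 0.05. Mean raw intensities were between 356 and 464. Chd9 itself, on its brighter probes ILMN_1235114 and ILMN_2697954, was left at 46.3% and 45.8% of the control level, with all shChd9 arrays below all control arrays (limma, adjusted p = 0.540 for each). The third Chd9 probe, ILMN_1226311, lay near background and gave a log2 fold change of 0.35 ± 0.21. All 16 stem cell markers were detected on 3 or more arrays. The 26 measurable markers of feeder fibroblasts all lay above 0 in log2 fold change (median 0.40, range 0.10 to 0.59). Their mean log2 intensity was 9.73, 8.63 and 9.23 on shChd9 arrays 1 to 3, against 9.25, 8.31 and 8.89 on control arrays 1 to 3, so that shChd9 array 1 stood highest and control array 2 lowest. Within each group array 1 was highest and array 2 lowest. Replicate numbers follow accession order, and the labels do not say whether arrays of the same number were matched. No matching was used in the fits, and whether there was any was not tested. In such mixed cultures, fewer cells of a type and less RNA per cell cannot be told apart. All arrays shared 1 slide, with each group in neighbouring positions, so position on the slide cannot be told apart from group.

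Promoters of the histone types differ in the short elements they carry, and the 5 windows that follow show 1 gene of each type. They are the genes with the smallest limma p-value of each type among those with 1 annotated start. Each runs 5′ to 3′ over the 250 bases before the start (RefSeq, GRCm38.p6). Capitals mark TATAAA (the TATA box), CCAAT (bound by the trimeric factor NF-Y) and ATTTGCAT (the octamer bound by Oct factors), on either strand.
H1f5 (chr13:21780626-21780875, - strand): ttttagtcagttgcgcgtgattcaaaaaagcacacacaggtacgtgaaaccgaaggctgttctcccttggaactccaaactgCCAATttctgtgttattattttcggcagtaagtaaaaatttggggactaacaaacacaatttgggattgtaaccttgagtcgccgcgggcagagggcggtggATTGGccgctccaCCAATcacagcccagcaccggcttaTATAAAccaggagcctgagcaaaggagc
H2ac20 (chr3:96220881-96221130, - strand): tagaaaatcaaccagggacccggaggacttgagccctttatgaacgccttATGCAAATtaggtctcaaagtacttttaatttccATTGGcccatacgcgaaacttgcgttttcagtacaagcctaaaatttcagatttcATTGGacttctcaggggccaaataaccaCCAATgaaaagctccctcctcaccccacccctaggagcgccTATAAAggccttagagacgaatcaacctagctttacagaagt
H2bc8 (chr13:23571150-23571399, + strand): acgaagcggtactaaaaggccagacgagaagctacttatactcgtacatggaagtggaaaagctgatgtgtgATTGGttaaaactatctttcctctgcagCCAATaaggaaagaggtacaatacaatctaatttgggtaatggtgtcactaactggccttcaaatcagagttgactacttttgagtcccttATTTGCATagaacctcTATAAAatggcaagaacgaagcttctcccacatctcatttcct
H3c3 (chr13:23745522-23745771, - strand): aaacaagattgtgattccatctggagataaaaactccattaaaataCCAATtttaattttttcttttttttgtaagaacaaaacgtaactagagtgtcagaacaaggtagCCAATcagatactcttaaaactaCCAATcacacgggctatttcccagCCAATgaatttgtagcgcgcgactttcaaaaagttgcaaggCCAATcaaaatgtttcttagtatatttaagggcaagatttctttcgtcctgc
H4c2 (chr13:23756687-23756936, + strand): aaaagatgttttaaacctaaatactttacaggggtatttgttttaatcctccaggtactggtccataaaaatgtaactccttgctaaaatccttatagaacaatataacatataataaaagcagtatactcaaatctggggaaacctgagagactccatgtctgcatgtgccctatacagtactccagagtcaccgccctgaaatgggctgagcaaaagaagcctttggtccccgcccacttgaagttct

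The octamer, an element long known from H2B promoters, stood in the H2bc8 window just ahead of the TATA box. In the H2ac20 window it stood toward the upstream end, on the reverse strand. Of the 55 genes, 50 had a window in the RefSeq table (51 windows), while H2bc21, H2bc4, H3c1, H3c7 and H4c14 did not. The octamer was found in 58.3% of H2B windows and 37.5% of H2A windows, in 0 of the H1, H3 and H4 windows, and in 1.60% of 32851 windows of all genes. CCAAT was found in all 16 H2A, all 12 H2B, all 5 H1 and 6 of 7 H3 windows, but in 27.3% of H4 windows, against 33.8% over all genes. TATAAA stood in 49.0% of the histone windows and in 12.4% of all. The H4c2 window held none of the 3 letter strings. A match is a description of letters and does not show that a factor was bound.

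Most histone probes gave a signal on the array. Of the 84 probes, 67 (79.8%) were detected on at least 3 of the 6 arrays and 62 on all 6, whereas 39.1% of all 45281 probes were detected on at least 3. Another 10 histone probes were detected on 1 or 2 arrays and 7 on no array. The number detected was 64, 69 and 66 on the shChd9 arrays and 68, 71 and 67 on the control arrays. No probe was detected on every array of one group and on no array of the other.

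Detection covered every type. It reached 20 of 23 H2A probes, 16 of 19 H4, 14 of 18 H2B, 13 of 18 H3 and 4 of 6 H1 probes. By gene, 48 of 55 had a probe detected on at least 3 arrays. The 7 genes without one were H1f3 and H1f4, somatic linker histones, H2ac1 and H2bc1, known as testis histones, and H2ac6, H2bc18 and H4c14. The H2ac1 and H2bc1 probes were each detected on 1 array, H2bc18 and H4c14 each on 2 control arrays.

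Levels are given as log2 intensity after background correction and quantile normalization, on which the 17 histone probes that were not tested averaged between 4.32 and 4.84. Brightness also depends on the probe, so that levels of different probes do not rank the genes. Tested H2A probes ranged from 6.16 to 14.68 with a median of 12.70, and 12 of the 20 lay above 12, a level passed by 3.78% of all tested probes. None of the probes of the other types lay above 12. Tested H2B probes ranged from 5.31 to 10.68, H3 probes from 5.63 to 10.97, H4 probes from 5.00 to 10.36 and H1 probes from 5.05 to 9.99.

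**Figure D1:**
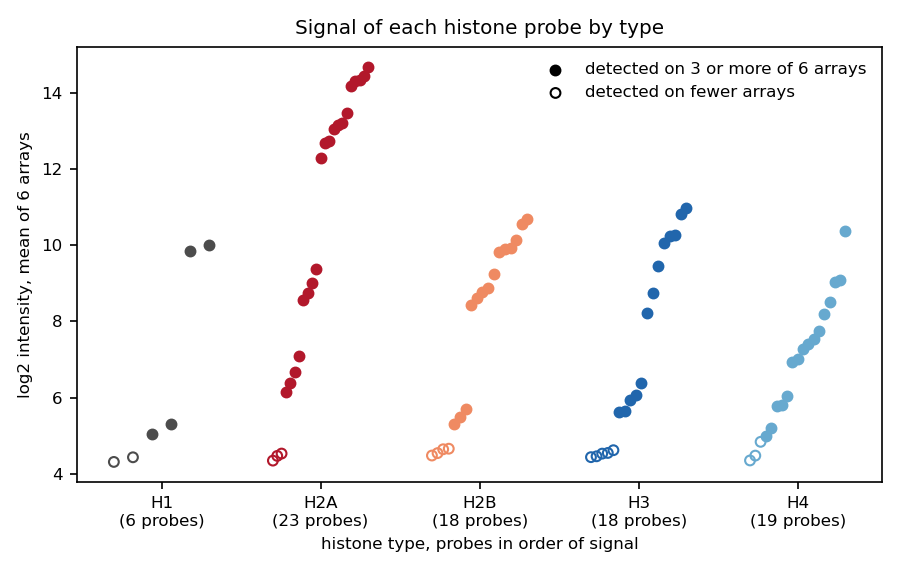
Mean log2 intensity over 6 arrays (vertical axis) of each of the 84 histone probes, by histone type (horizontal axis) and in order of signal within a type. Filled circles are the 67 probes detected on at least 3 arrays and open circles the other 17; the 12 probes above 12 are all H2A.

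The 12 H2A probes above 12 belonged to 8 genes, whose coding sequences are close copies of each other. Probe sequences were not used here, and signal from several H2A genes on 1 probe cannot be told apart from signal of 1 gene. H2ac24 (ILMN_2836654), the brightest of all, measured 14.88, 14.47 and 14.40 on shChd9 arrays and 14.86, 14.96 and 14.49 on control arrays. H2ac20 (ILMN_1218380) measured 14.65, 14.30 and 14.22 on shChd9 arrays and 14.55, 14.72 and 14.22 on control arrays. H2ac10 (ILMN_1252136) measured 14.61, 14.23 and 14.03 on shChd9 arrays and 14.38, 14.66 and 14.03 on control arrays. In each of these the groups overlapped. The probes of H2ac13 gave log2 fold changes of -0.13 ± 0.19 (ILMN_1238276) and -0.13 ± 0.19 (ILMN_2745212).

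The brightest probes of the other core histones lay between 10 and 11. H2bc6 (ILMN_2742592) measured 11.03, 10.51 and 10.996 on shChd9 arrays and 10.45, 10.53 and 10.54 on control arrays. H3c13 (ILMN_2934120), an H3 gene of the Hist2 cluster, measured 11.07, 10.98 and 10.89 on shChd9 arrays and 10.97, 11.12 and 10.82 on control arrays. H4c1 (ILMN_2759159) measured 10.59, 10.12 and 10.58 on shChd9 arrays and 10.25, 10.33 and 10.31 on control arrays. For the H3 gene the arrays of both groups interleaved, while for the H2B and H4 genes shChd9 arrays 1 and 3 lay above the controls and array 2 did not. H1f2 was the 1 linker histone with bright probes. Its probe ILMN_2774537 measured 10.55, 9.78 and 10.10 on shChd9 arrays and 10.05, 9.56 and 9.92 on control arrays.

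Probes of the same gene often disagreed in brightness. Of 21 genes with more than 1 probe, 10 had probes over 4 log2 units apart, and 9 had at least 1 probe that was tested beside 1 that was not. H2ac20 showed the widest gap, with its probes at 14.44 and 6.16. H3c10 had probes at 10.82, 8.23 and 6.06, and H2bc6 at 10.68, 9.92 and 5.72. Of the 4 probes of H3c7, 2 were tested and the others were each detected on 1 array. In 4 of the 16 genes with several tested probes (H2ac20, H2bc12, H3c7 and H4c18), the log2 fold changes had both signs.

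**Figure D2:**
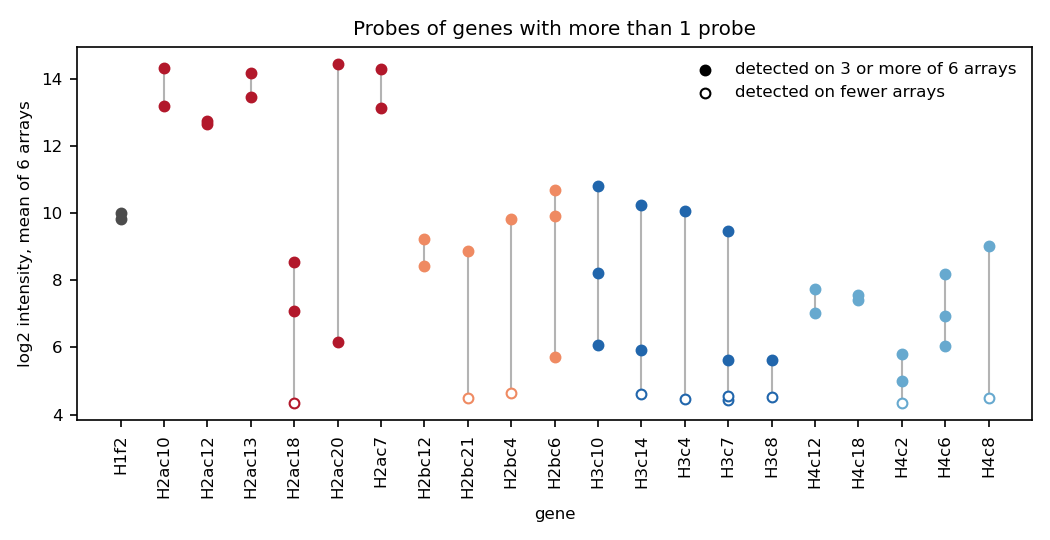
Mean log2 intensity over 6 arrays (vertical axis) of every probe of the 21 genes with more than 1 probe (horizontal axis), joined by a line within a gene and coloured by histone type. Filled circles are probes detected on at least 3 arrays; H2ac20 spans 6.16 to 14.44.

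Annotated length set 3 H2B genes apart from the others. H2bc6, H2bc4 and H2bc21 span 37455, 8282 and 2667 bases in the RefSeq annotation (GRCm38.p6), while the other genes span 375 to 911 bases. In mouse, H2bc21 is known as an H2B variant of olfactory neurons. Each of the 3 genes had a bright probe, at 10.68, 9.81 and 8.87 for H2bc6, H2bc4 and H2bc21. H2bc4 and H2bc21 also each had a probe that was not tested. Short genes gave bright probes too: H2ac24 spans 452 bases and H4c1 455. Where on a transcript the probes lie was not analysed here.

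No histone probe differed between shChd9 and control samples after adjustment. Of the 67 tested, limma called 0 at an adjusted p under 0.05 over all 17719 tested probes, where it called 0 in all (0%), and the smallest adjusted p of a histone probe was 0.911. At an unadjusted p under 0.05 there were 7 histone probes (10.4%), 4 higher and 3 lower in shChd9 samples, against 5.32% of all tested probes (2.35% higher, 2.96% lower). The groups did not overlap in 6 probes (8.96%), 3 in each direction, against 10.3% of all (4.52% higher, 5.77% lower). Without shChd9 array 1, the array of highest feeder markers, 2 histone probes had an unadjusted p under 0.05. Without control array 2, the array of lowest feeder markers, there were also 2, and without shChd9 array 2 there were 15. The count over all tested probes moved in the same direction in each of these fits, but by a smaller proportion than the histone count. Without control array 3 the histone count rose while the count over all tested probes fell. Whether the changes were particular to histone probes was not tested. With 1 probe per gene, where fewer probes are tested, 3 of 48 genes had a p that low, and the count over all genes was lower too.

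Across all 67 probes the median log2 fold change was -0.09, with 27 higher and 40 lower in shChd9 samples, against a median of -0.00 and 49.2% higher over all tested probes. The 95% interval lay within a 2-fold change in either direction for 55 of the 67, or 82.1%, against 93.2% of all tested probes. The histone median was 0.04 without control array 2 and between -0.12 and -0.02 without any other single array. Genes of the Hist2 cluster had a median of 0.08 over 10 probes and those of Hist1 a median of -0.09 over 57.

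Split by type, the medians lay on both sides of 0. H2B probes had a median log2 fold change of 0.25, with 11 of 14 above 0, and H3 probes one of -0.30, with 9 of 13 below 0. H2A probes had -0.10 (16 of 20 below 0), H4 probes -0.09 (10 of 16 below 0) and H1 probes -0.12 (2 of 4 below 0). The H2B median stayed between 0.17 and 0.37 and the H3 median between -0.39 and -0.10 when any 1 array was left out, and the H3 median of -0.10 was that without control array 2. The H2A median was 0.06 without control array 2. The H4 median was 0.05 with 1 probe per gene. No type was compared with another by a test, and probes of a type share sequence and are not independent.

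**Figure D3:**
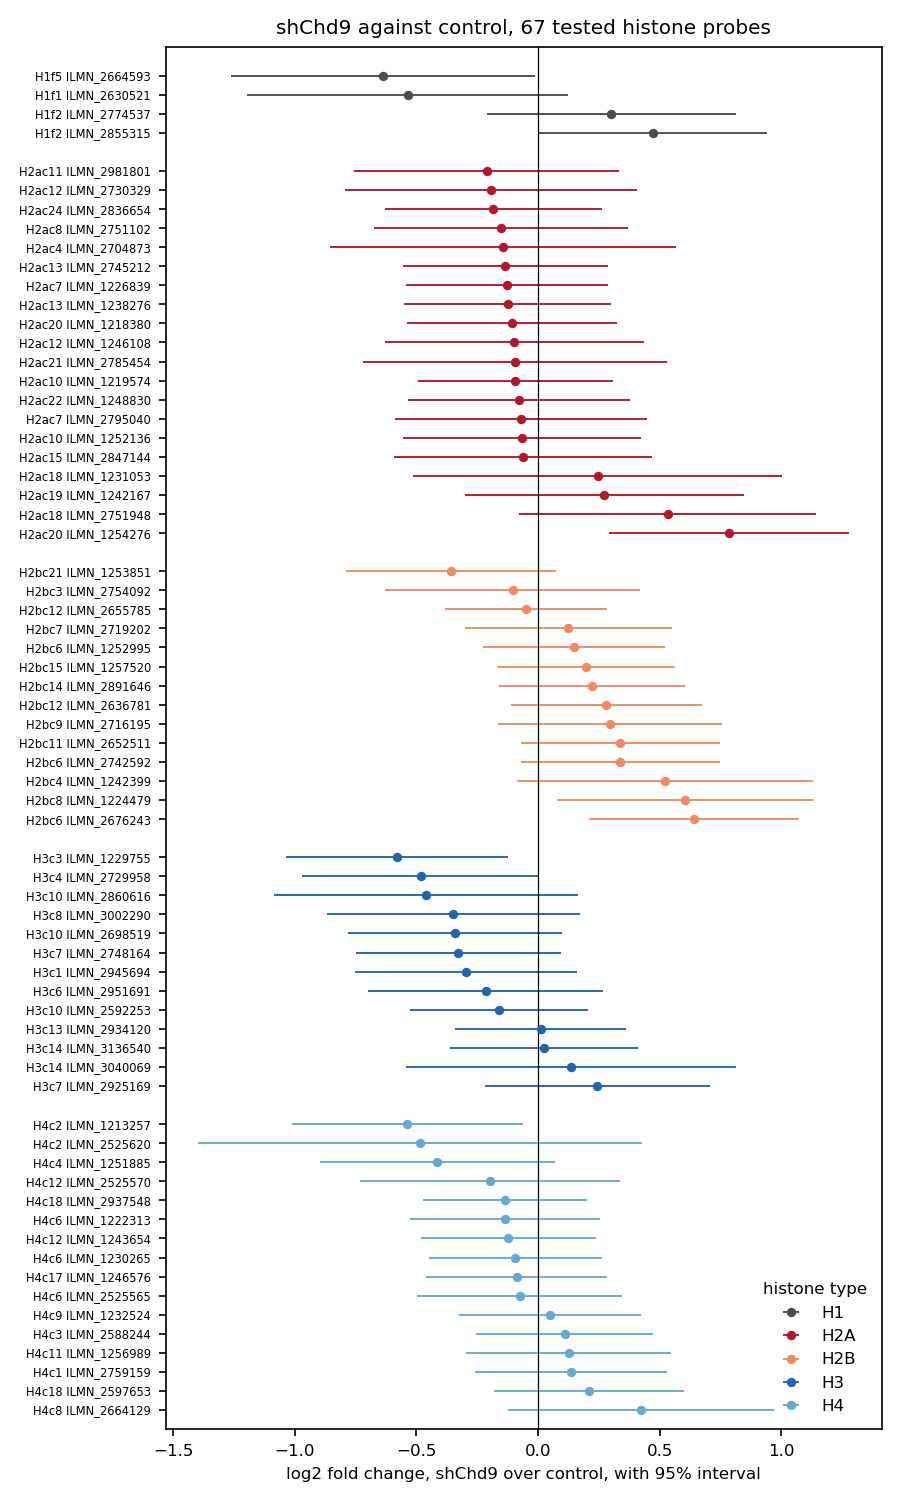
Log2 fold change of shChd9 over control (horizontal axis) with its 95% interval for the 67 tested histone probes (vertical axis, by gene and probe), coloured by histone type. Most intervals include 0; H2B points lie mostly to the right of 0 (median 0.25) and H3 points mostly to the left (median -0.30).

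Among linker histones, which bind the DNA between nucleosomes, H1f2 and H1f5 lay in opposite directions. The second H1f2 probe, ILMN_2855315, measured 10.35, 9.85 and 10.02 on shChd9 arrays and 9.81, 9.24 and 9.74 on control arrays, without overlap. Its log2 fold change was 0.47 ± 0.21 (SE; limma, adjusted p = 0.922), and 0.29 without control array 2, while the brighter probe gave 0.30 ± 0.23, or 0.10 without shChd9 array 1. H1f5 (ILMN_2664593) measured 4.80, 5.54 and 4.66 on shChd9 arrays, on 1 of which it was detected, and 5.45, 6.10 and 5.35 on control arrays, on all of which it was detected. Here shChd9 array 2 exceeded control arrays 1 and 3, and the log2 fold change was -0.64 ± 0.28 (limma, adjusted p = 0.922), or -0.41 without control array 2.

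In H2A, which pairs with H2B in the nucleosome, 4 of the 8 tested probes below a level of 12 had a log2 fold change above 0, and those of H2ac4, H2ac8, H2ac11 and H2ac21 lay below 0 like the 12 brighter ones. The dim H2ac20 probe, ILMN_1254276, had the smallest p of all histone probes. It measured 7.01, 6.32 and 6.32 on shChd9 arrays and 5.86, 5.87 and 5.55 on control arrays, so that every shChd9 array lay above every control array. Its log2 fold change was 0.79 ± 0.22 (limma, adjusted p = 0.911), a 1.72-fold difference, with a range of 0.55 to 0.90 when 1 array was left out. The bright H2ac20 probe gave -0.11 ± 0.19. H2ac18 and H2ac19, near-identical copies in the Hist2 cluster, supplied the other 3 H2A probes above 0. H2ac18 (ILMN_2751948) measured 7.98, 7.13 and 6.93 on shChd9 arrays and 7.03, 6.86 and 6.56 on control arrays (log2 fold change 0.53 ± 0.27, or 0.21 without shChd9 array 1). The brighter H2ac18 probe, ILMN_1231053, gave 0.24 ± 0.34, or -0.19 without shChd9 array 1. H2ac19 measured 9.75, 8.88 and 8.79 on shChd9 arrays and 8.95, 8.97 and 8.69 on control arrays. All 4 of these H2A probes were highest on shChd9 array 1, where the feeder markers were also highest. The part of the feeder cells in them was not tested.

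For H2B, the dimmest H2bc6 probe, ILMN_2676243, measured 6.35, 5.75 and 6.00 on shChd9 arrays and 5.57, 5.29 and 5.33 on control arrays, without overlap. Its log2 fold change was 0.64 ± 0.19 (limma, adjusted p = 0.911), with 0.34 ± 0.18 and 0.15 ± 0.17 on the brighter probes ILMN_2742592 and ILMN_1252995. H2bc8 (ILMN_1224479) measured 5.89, 5.70 and 5.83 on shChd9 arrays and 5.72, 5.11 and 4.77 on control arrays, with an overlap at control array 1. It was detected on all shChd9 arrays and 2 control arrays, with a log2 fold change of 0.60 ± 0.23 (limma, adjusted p = 0.911), and 0.39 without control array 3. H2bc4 (ILMN_1242399) measured 10.61, 9.48 and 10.14 on shChd9 arrays and 9.64, 9.32 and 9.69 on control arrays, with shChd9 array 2 inside the control range. H2bc7 measured 10.79, 10.31 and 10.75 on shChd9 arrays and 10.29, 10.52 and 10.66 on control arrays, with a log2 fold change of 0.12 ± 0.19. For H2bc7 too, shChd9 array 2 lay within the control range. H2bc11 measured 10.39, 9.97 and 10.52 on shChd9 arrays and 9.89, 10.04 and 9.94 on control arrays. Of the 3 H2B probes below 0, that of H2bc21 (ILMN_1253851) measured 8.60, 8.79 and 8.68 on shChd9 arrays and 8.94, 9.41 and 8.80 on control arrays. Its log2 fold change was -0.36 ± 0.19, or -0.18 without control array 2, and its groups did not overlap.

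For H3, the histone that carries many regulatory tail marks, H3c3 (ILMN_1229755) measured 5.97, 6.204 and 6.08 on shChd9 arrays and 6.66, 7.02 and 6.30 on control arrays. Every shChd9 array lay below every control array, with a log2 fold change of -0.58 ± 0.20 (limma, adjusted p = 0.911) and a range of -0.76 to -0.40 when 1 array was left out. H3c4 (ILMN_2729958) measured 9.67, 10.01 and 9.78 on shChd9 arrays and 10.06, 10.75 and 10.10 on control arrays, again without overlap. Its value of -0.48 ± 0.22 (limma, adjusted p = 0.922) was -0.25 without control array 2. H3c10 gave -0.16 ± 0.16, -0.34 ± 0.20 and -0.46 ± 0.28 on its 3 probes from bright to dim, where the second was -0.20 without control array 2 and the third -0.29 without shChd9 array 1. H3c7 gave -0.33 ± 0.19 on its bright probe (-0.17 without control array 2) and 0.24 ± 0.21 on its dim one. The Hist2 genes H3c13 and H3c14 gave 0.01 ± 0.16 for the first and 0.03 ± 0.17 and 0.14 ± 0.30 for the probes of the second.

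For H4, whose many genes encode one and the same protein sequence, H4c2 (ILMN_1213257) measured 4.45, 5.02 and 4.73 on shChd9 arrays, on 1 of which it was detected, and 4.94, 5.36 and 5.51 on control arrays, on all of which it was detected. Its log2 fold change was -0.54 ± 0.21 (limma, adjusted p = 0.911), near background and with an overlap of shChd9 array 2 with control array 1. A second H4c2 probe, ILMN_2525620, measured 4.74, 5.505 and 6.46 on shChd9 arrays and 5.505, 6.50 and 6.15 on control arrays, an SD of 0.86 among the shChd9 arrays alone. H4c8 (ILMN_2664129) measured 9.72, 8.79 and 9.21 on shChd9 arrays and 8.91, 8.56 and 8.98 on control arrays, highest on shChd9 array 1 and lowest on control array 2. H4c4 gave -0.41 ± 0.21, or -0.25 without control array 1. The 3 probes of H4c6 gave -0.13 ± 0.17, -0.09 ± 0.16 and -0.08 ± 0.19, and those of H4c12 gave -0.12 ± 0.16 and -0.20 ± 0.24. H4c11 gave 0.13 ± 0.19, and the probes of H4c18 gave 0.21 ± 0.17 and -0.13 ± 0.15.

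With 3 arrays against 3 there are 10 ways to split them, and an exact permutation test (two-sided) has a smallest possible p of 0.10. That smallest value was reached by 6 of the 67 probes, single probes of H1f2, H2ac20, H2bc6, H2bc21, H3c3 and H3c4. These are the same 6 probes whose groups did not overlap (8.96%, against 10.3% of all tested probes), so the test adds no further support. Of the 7 probes with an unadjusted limma p under 0.05, 6 had a mean below 7, in the dim part of the range.

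The spread among arrays of the same group was seen in every histone type. Each probe was set against its own mean over the 6 arrays, and the median was taken over the tested probes of a type. For H2A this median was 0.20, -0.09 and -0.25 on shChd9 arrays 1 to 3 and 0.13, 0.31 and -0.31 on control arrays 1 to 3. Of the 12 H2A probes above 12, 11 were highest on control array 2 and all 12 were lowest on shChd9 array 3 or control array 3. The range of these medians within each group was wider than the median difference of -0.10 between the groups.

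H2B probes showed another order. Their median was 0.27, -0.13 and 0.28 on shChd9 arrays and -0.16, -0.03 and -0.11 on control arrays. In 11 of 14 H2B probes, shChd9 arrays 1 and 3 both lay above every control array, and in 10 of those 11 shChd9 array 2 did not. Among the other types, shChd9 arrays 1 and 3 both lay above every control array in 3 of 16 H4 and 2 of 4 H1 probes. They did so in 1 of 20 H2A and 1 of 13 H3 probes. In that H2A probe and 1 of the 2 H1 probes, shChd9 array 2 also lay above every control array. Over all histone types it was 18 of 67 probes (26.9%). This pattern was noticed in the values, was not counted over all tested probes and was not tested. Feeder markers were also higher on shChd9 arrays 1 and 3 (9.73 and 9.23) than on shChd9 array 2 (8.63), but among the controls they were lowest on array 2, where the H2B median was highest. Their part in the H2B values was not tested.

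H3 probes, like H2A probes (15 of 20), were mostly highest on control array 2. The H3 median was -0.27, -0.03 and -0.10 on shChd9 arrays and -0.02, 0.51 and -0.06 on control arrays. Of 13 H3 probes, 10 were highest on control array 2 and 7 were lowest on shChd9 array 1, the arrays with the lowest and the highest feeder markers. For H1 the median over 4 probes was 0.14, 0.07 and -0.28 on shChd9 arrays and 0.02, 0.12 and -0.02 on control arrays, and 2 of the 4 were highest and the other two lowest on control array 2. H4 probes had medians of -0.10, -0.04 and 0.12 on shChd9 arrays and -0.13, 0.15 and 0.07 on control arrays. Over all types, 36 of 67 histone probes (53.7%) were highest on control array 2, against 21.1% of all tested probes. Another 18 (26.9%) were highest on shChd9 array 1, against 18.7%. The part of the feeder cells in these orders was not tested.

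**Figure D4:**
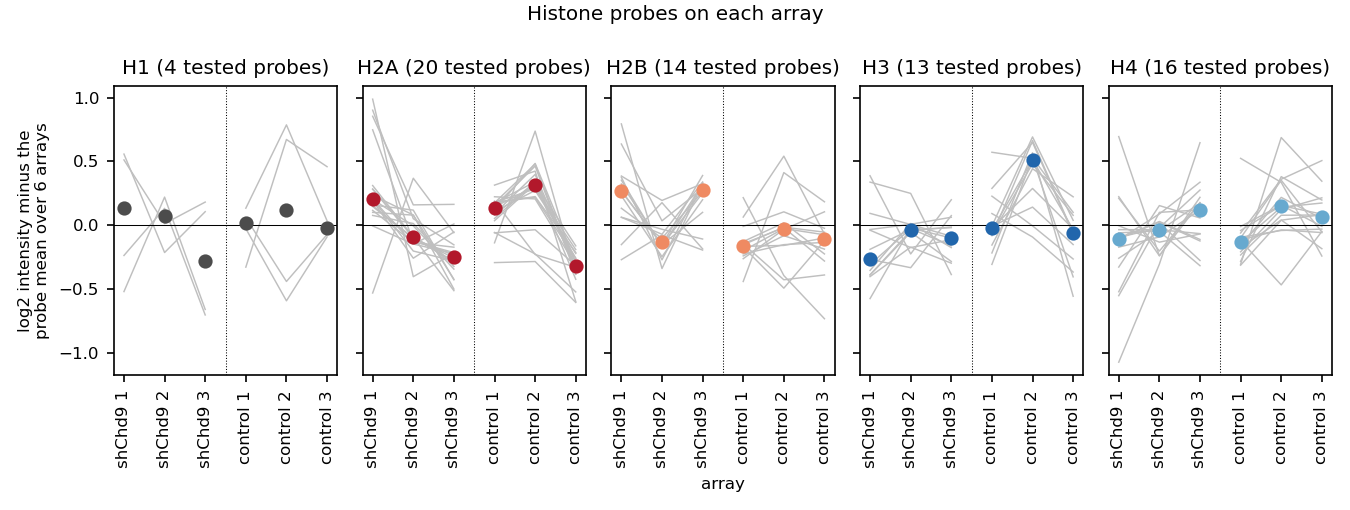
Log2 intensity minus the probe's own mean over 6 arrays (vertical axis) on each array (horizontal axis, shChd9 left of the dotted line, control right), with 1 panel per histone type. Grey lines are tested probes and coloured circles their median; H3 is highest on control array 2 (0.51) and H2B on shChd9 arrays 1 and 3 (0.27 and 0.28).

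Replication-independent histones, whose messages mostly carry a poly(A) tail and which are made outside S phase too, showed small differences. Of 14 listed genes 10 were tested, each by its brightest probe. Limma called 0 of the 10 at an adjusted p under 0.05 and found 0 at an unadjusted p under 0.05. Their log2 fold changes ran from -0.09 to 0.24 with a median of 0.04, against a median of -0.00 over 10194 genes. H2az1, the H2A.Z gene, gave 0.13 ± 0.17, and H3f3a and H3f3b, which encode H3.3, gave 0.09 ± 0.17 and 0.07 ± 0.16. The DNA damage variant H2ax gave -0.09 ± 0.21, H2az2 0.14 ± 0.16 and Macroh2a2, near background, 0.24 ± 0.25.

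Genes that switch on histone transcription or process the stem-loop messages were not called either. Of 24 listed, 17 were tested, limma called 0 and found 0 at an unadjusted p under 0.05, and the median log2 fold change was -0.04 (7 higher, 10 lower). Npat, the coactivator at the histone locus, Slbp, the stem-loop binding protein, and Lsm11 of the U7 particle were not among those tested. Lsm10, also of the U7 particle, gave 0.09 ± 0.17 and the scaffold Sympk -0.04 ± 0.17. Ncbp1, which binds the message cap, gave 0.21 ± 0.17 and the NF-Y subunit Nfya -0.25 ± 0.21.

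Histone chaperones, which carry histones to DNA, gave 12 genes higher and 9 lower among 21 tested, with a median of 0.06. Limma called 0, and at an unadjusted p under 0.05 there were 2 of the 21, both lower in shChd9 samples. Over all tested probes that share was 5.32%. Chaf1b, a subunit of the assembly factor that deposits histones behind the replication fork, measured 10.01, 10.15 and 9.92 on shChd9 arrays and 10.37, 10.42 and 10.33 on control arrays. Its log2 fold change was -0.35 ± 0.15 (limma, adjusted p = 0.922). Dek, a chromatin protein, measured 7.80, 7.62 and 6.996 on shChd9 arrays and 8.47, 7.84 and 8.03 on control arrays (log2 fold change -0.64 ± 0.25; limma, adjusted p = 0.911; -0.40 without shChd9 array 3). In both genes the groups did not overlap, nor did they in Anp32e (-0.22 ± 0.16), as in 10.3% of all tested probes.

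Replication and S phase genes, whose expression marks the phase in which these histones are made, had a median of -0.08 over 28 tested, with 9 higher and 19 lower. Limma called 0 of them and found 0 at an unadjusted p under 0.05. Rrm1, a subunit of the enzyme that makes deoxynucleotides, gave -0.32 ± 0.17 and Gins2, of the replicative helicase, -0.35 ± 0.19, or -0.20 without control array 2. The list mean was 9.67, 9.93 and 9.71 on shChd9 arrays and 9.87, 9.81 and 9.79 on control arrays, lowest on shChd9 array 1 and highest on shChd9 array 2. Chaf1b and S phase genes are expressed by dividing cells, and the part of the inactivated feeder cells in their values was not tested.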

How the data were processed

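RNA from 3 shChd9 and 3 control samples was measured, 1 Illumina bead array each, grouped by the labelled transfection and numbered in accession order without pairing. Per the file headers, the authors deposited for each probe an intensity averaged over its beads, beside a detection p-value. Per the submitters' processing notes GenomeStudio was used, without stated settings. A second deposited table holds quantile-normalized intensities and served as an alternative. Symbols came from the platform annotation, updated through a RefSeq table: 34885 probes had 1 symbol, 18 several and 10378 none.

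With limma 3.58.1 (R 4.3.3), neqc was run with negative controls inferred from detection (normexp background, offset 16, quantile normalization, log2). Probes detected (p under 0.05) on at least 3 arrays were tested with limma's moderated test (lmFit, eBayes; two-sided); Benjamini-Hochberg adjustment ran over all 17719. Intervals are 95%. Fits were tested on simulated data. Genes of the lists were represented by their brightest tested probe.

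Members and lists were chosen with earlier results of these data known. The text names the 6 probes of smallest p in each direction, the 3 brightest of each type, genes with several tested probes, and the 2 genes of smallest p in each list. Among stem cell markers these are Tdgf1 (log2 fold change -0.54 ± 0.25) and Tcl1 (-0.30 ± 0.18, or -0.17 without shChd9 array 1), and among feeder markers Timp3 (0.52 ± 0.21) and S100a4 (0.59 ± 0.25, or 0.36 without shChd9 array 1). The 6 arrays limit the precision of every value. Alternatives covered background correction, normalization, detection filters, 1 probe per gene and leaving out each array.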

Additional observations from a re-analysis of the deposited data

How the results depend on the processing

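No histone probe passed the adjusted threshold under any of the 14 alternatives run, and limma counted 5 to 9 at an unadjusted p under 0.05 under 7 other background, normalization and filter settings. With 1 probe per gene the count was 3, and it ran from 2 to 15 when 1 array was left out. The count over all tested probes was also lower with 1 probe per gene, where fewer are tested. Among the fits with an array left out, it too was lowest without control array 2 and highest without shChd9 array 2. Between 62 and 77 of the 84 probes were detected under other detection rules. The median log2 fold change ran from -0.12 to 0.04 over the arrays left out and from -0.09 to -0.06 under the other settings. The H1 median, over 4 tested probes, was 0.048 without background correction. It was 0.39 over the 2 H1 probes detected on all 6 arrays, both of H1f2, and -0.54 over 3 genes with 1 probe per gene. The last 2 values differ from the main one in which probes were kept. Of the 64 named probes, 1 turned its sign under another setting (H2bc12 ILMN_2655785, 0.0038 under median scaling), and 13 did so in at least 1 fit with an array left out. Their lowest and highest log2 fold changes then were: H2ac10 ILMN_1252136 -0.23 to 0.0887, H2ac12 ILMN_1246108 -0.29 to 0.0916, H2ac12 ILMN_2730329 -0.42 to 0.0121, H2ac18 ILMN_1231053 -0.19 to 0.51, H2ac20 ILMN_1218380 -0.24 to 0.00297, H2ac7 ILMN_2795040 -0.24 to 0.13, H3c13 ILMN_2934120 -0.0625 to 0.0825, H3c14 ILMN_3040069 -0.11 to 0.46, H3c14 ILMN_3136540 -0.10 to 0.15, H4c12 ILMN_2525570 -0.39 to 0.0101, H4c6 ILMN_1222313 -0.22 to 0.00814, H4c6 ILMN_2525565 -0.17 to 0.0670, Macroh2a2 ILMN_2525799 -0.0701 to 0.43. The cause was not tested. No paired analysis was run because the labels give no replicate numbers. Dim probes near background and 3 arrays per group limit what can be seen.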
